A study of Homo sapiens with 6 samples.

Results

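The sirtuins are a family of 7 human enzymes that remove acetyl and other acyl groups from lysine residues of proteins. They were chosen here by gene symbol, SIRT1 to SIRT7, and all 7 were found among the 23998 genes of the deposited count table. All 7 passed the filter on low counts that left 15422 genes for testing. RNA was sequenced from LNCaP, an established line of human prostate cancer cells whose growth responds to androgen, in 3 libraries of untreated cells labelled WT (LNCaP-WT) and 3 of an enzalutamide-resistant derivative (LNCaP-ENZR). Enzalutamide is an antiandrogen drug. The labels describe stepwise exposure of the resistant cells to 5 up to 50 µM of the drug for more than 12 months with 10% charcoal-stripped serum, and a growth medium with 10% fetal bovine serum is listed for every sample. Whether drug or stripped serum was present at harvest is not stated, so drug history, serum and time in culture cannot be told apart, and the resistant cells are a single derivation. No label states that libraries within a group were grown as separate cultures, so p-values measure only the spread between these libraries.

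Sirtuins spend one molecule of the cofactor NAD for each acyl group they take off and release nicotinamide, which ties their activity to the metabolic state of the cell. SIRT1, SIRT6 and SIRT7 work mainly in the nucleus, SIRT2 mainly in the cytosol, and SIRT3, SIRT4 and SIRT5 in mitochondria. The opposing reaction is carried out by lysine acetyltransferases, and a separate set of zinc-dependent deacetylases (HDACs) removes acetyl groups without NAD.

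The upstream sequences of 4 sirtuin genes are shown. Of these, SIRT1 had the largest change of the family. The other 3 start, in RefSeq, within 500 bases of a gene on the opposite strand that they do not overlap there. In GENCODE the SIRT2 gene reaches to chr19:38899862, past the RefSeq start of NFKBIB on the opposite strand. Most of the SIRT2 window below thus lies inside the gene in that annotation. Each line gives the 250 bases before the gene's start, 5′ to 3′ on the gene's own strand, from RefSeq (GRCh38.p14). They lie at chr10:67884406-67884655 (plus strand), chr19:38899619-38899868 (minus), chr11:236932-237181 (minus) and chr19:4182564-4182813 (minus).
SIRT1: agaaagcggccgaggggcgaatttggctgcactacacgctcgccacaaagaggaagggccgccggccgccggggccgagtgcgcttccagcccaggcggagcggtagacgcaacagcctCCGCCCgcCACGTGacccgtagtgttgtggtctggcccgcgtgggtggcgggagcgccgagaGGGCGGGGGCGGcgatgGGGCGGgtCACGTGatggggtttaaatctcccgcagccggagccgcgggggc
SIRT2: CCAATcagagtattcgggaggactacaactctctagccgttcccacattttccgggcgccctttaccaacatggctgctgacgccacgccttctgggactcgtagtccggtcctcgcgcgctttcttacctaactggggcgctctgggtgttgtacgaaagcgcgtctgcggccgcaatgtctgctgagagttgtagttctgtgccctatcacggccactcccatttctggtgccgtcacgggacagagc
SIRT3: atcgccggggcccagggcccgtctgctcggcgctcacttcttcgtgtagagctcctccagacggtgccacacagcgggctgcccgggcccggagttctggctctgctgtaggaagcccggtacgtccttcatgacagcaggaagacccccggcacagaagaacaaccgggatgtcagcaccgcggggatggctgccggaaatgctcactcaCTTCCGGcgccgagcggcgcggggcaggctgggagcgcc
SIRT6: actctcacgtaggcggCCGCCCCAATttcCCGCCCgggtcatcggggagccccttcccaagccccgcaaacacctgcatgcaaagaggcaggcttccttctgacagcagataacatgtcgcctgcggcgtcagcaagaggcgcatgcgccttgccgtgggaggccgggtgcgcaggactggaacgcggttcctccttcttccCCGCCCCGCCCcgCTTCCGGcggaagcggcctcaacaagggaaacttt
Capitals mark matches on either strand to 5 motifs, chosen after these sequences were seen: the E-box CACGTG, to which MYC and related factors bind, the GC box GGGCGG, an ETS core CCGGAAG, the CCAAT box and the cyclic AMP response element TGACGTCA. The SIRT1 window held 2 E-boxes, starting 123 and 44 bases before the gene's start, and 4 GC boxes. At least 1 E-box occurred in 6.3% of 35116 such windows and at least 1 GC box in 42.6%. Windows with several matches were not counted separately. G and C made up 72.0% of the SIRT1 window and 65.6% of the SIRT6 window. SIRT3 and SIRT6 each had 1 ETS core (8.5% of windows), SIRT6 had 4 GC boxes, and both SIRT2 and SIRT6 had 1 CCAAT (32.0%). In SIRT6, 2 GC boxes overlapped each other and another overlapped the CCAAT. The cyclic AMP element was in none of the 4 windows (1.6% of all). A match describes letters only and not binding.

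Library totals ran from 34505712 to 36610862 counts. The summed level of 11 luminal markers of LNCaP cells ranged over 5988 to 6130 CPM (counts scaled to library size) in LNCaP-WT and over 3148 to 3261 in the resistant cells, with none of them at 0. Of these markers 7 fell, 3 rose and 1 was not called, beside 34.8% of all tested genes that fell and 34.4% that rose. The sums of 5 leukocyte markers were 0.441 to 0.602 and 0.453 to 0.630 CPM, those of 6 fibroblast and endothelial markers 104.8 to 116.9 and 127.6 to 154.4 CPM, and those of 6 markers of the lines PC-3 and DU145 153.8 to 175.6 and 118.1 to 139.7 CPM. In the fibroblast and endothelial list only VWF was called, from 0.701 ± 0.451 to 31.3 ± 2.04 CPM, while 3 others did not pass and 2 were too scarce to test. All 5 leukocyte markers and 4 of the PC-3 and DU145 markers stayed under 1 CPM in every library. The PC-3 and DU145 sums thus come almost wholly from EGFR and MET, which both fell. EGFR went from 145.2 ± 10.2 to 118.6 ± 10.3 CPM and MET from 20.9 ± 1.41 to 8.29 ± 1.19. The part of these marker shifts in the results was not tested.

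In the resistant cells 4 of the 7 sirtuin transcripts were lower, 1 was slightly higher and 2 did not pass the test. SIRT1 fell most, by 3.18-fold, followed by SIRT2, SIRT3 and SIRT5. SIRT6 was higher by a small margin, and SIRT4 and SIRT7 did not pass. Calls were made with edgeR's quasi-likelihood test at a Benjamini-Hochberg adjusted p under 0.05 over all 15422 genes. By the same rule 34.8% of all tested genes fell, 34.4% rose and 69.2% changed, so changed genes are the majority in this comparison. The median log2 fold change (LNCaP-ENZR over LNCaP-WT) was -0.44 over the 7 sirtuins and -0.01 over all tested genes. In bulk RNA, fewer cells expressing a gene and less RNA per cell cannot be told apart.

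SIRT1, the nuclear deacetylase of p53, FOXO factors and the coactivator PGC-1alpha, had 2284, 2506 and 2152 counts in the 3 LNCaP-WT libraries and 764, 627 and 727 in the 3 LNCaP-ENZR libraries. Every resistant library was below every parental one. Scaled by library size the means were 64.1 ± 4.65 and 20.1 ± 2.15 CPM (SD, n = 3 each), a log2 fold change of -1.67 ± 0.084 SE (edgeR adjusted p = 2.09e-12). Of the tested genes, 851 (5.52%) fell at least as much.

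SIRT2, a largely cytosolic enzyme that deacetylates alpha-tubulin among other proteins, had 3515, 3776 and 3849 counts in LNCaP-WT and 1848, 1824 and 1809 in LNCaP-ENZR. The groups did not overlap, and the resistant libraries lay close together. The level went from 102.8 ± 3.58 to 52.1 ± 0.692 CPM (n = 3 each, log2 fold change -0.98 ± 0.059 SE, edgeR adjusted p = 2.31e-11). At least as large a fall was seen in 1895 genes, 12.3% of those tested.

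Among the mitochondrial members, SIRT3 is the main deacetylase of the matrix. It had 1444, 1588 and 1494 counts in LNCaP-WT and 904, 1059 and 1000 in LNCaP-ENZR, with no overlap. Its level was 41.8 ± 1.5 against 28.2 ± 2.08 CPM (n = 3 each, log2 fold change -0.57 ± 0.076 SE, edgeR adjusted p = 1.7e-06). At least as large a fall was seen in 3282 genes (21.3%). SIRT5, which removes succinyl, malonyl and glutaryl groups, had 625, 753 and 649 counts against 451, 520 and 484. The lowest parental library was above the highest resistant one, at 18.7 ± 1.66 and 13.8 ± 0.901 CPM (n = 3 each, log2 fold change -0.44 ± 0.096 SE, edgeR adjusted p = 0.000535). For SIRT5, 3863 genes (25%) fell at least as much. Its gene model of 8409 bp lies in the second-longest of 10 length classes, where the median log2 fold change of all genes was -0.111. With offsets for gene length the SIRT5 value was -0.32 (edgeR adjusted p = 0.00756). SIRT4, known for acting on glutamate dehydrogenase and for weak deacetylase activity, was the scarcest member. Its counts were 44, 70 and 82 in LNCaP-WT and 94, 75 and 75 in LNCaP-ENZR, and the groups overlapped. The log2 fold change of 0.36 had a 95% interval of -0.17 to 0.89 (edgeR adjusted p = 0.212), so at this depth neither a modest fall nor a rise of over 1.5-fold was separated from no change.

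The nuclear members SIRT6 and SIRT7 had the smallest fold changes of the family. SIRT6, a chromatin deacetylase with roles in DNA repair and in restraint of glycolytic genes, had 634, 613 and 644 counts in LNCaP-WT and 694, 778 and 680 in LNCaP-ENZR. The groups did not overlap, but the difference was small, at 17.5 ± 0.591 against 20.5 ± 1.36 CPM (n = 3 each, log2 fold change 0.23 ± 0.087 SE, edgeR adjusted p = 0.0263). That call ended when LNCaP-WT 2 (edgeR adjusted p = 0.0861), LNCaP-WT 3 (0.0509) or LNCaP-ENZR 2 (0.0837) was left out, with library totals as the only scaling (0.154), with offsets for gene length (0.136) and in limma fits of the FPKM values (0.0907 to 0.123). Its gene model of 1898 bp lies in the second-shortest of 10 length classes, where the median log2 fold change of all genes was 0.131. SIRT7, a nucleolar enzyme linked to ribosomal RNA transcription, had 992, 1039 and 984 counts against 936, 1006 and 900. In CPM its groups overlapped, at 27.8 ± 0.669 and 27.0 ± 1.35 (n = 3 each), with a 95% interval of the log2 fold change of -0.20 to 0.12 (edgeR adjusted p = 0.627). Without LNCaP-ENZR 3 its log2 fold change turned from -0.04 to 0.01, still without passing (edgeR adjusted p = 0.924). Over the whole family, 5 of 7 genes had CPM values that did not overlap between groups, against 72.2% of all tested genes, and in 4 of them the resistant libraries were the lower ones, against 36.4%.

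**Figure D1:**
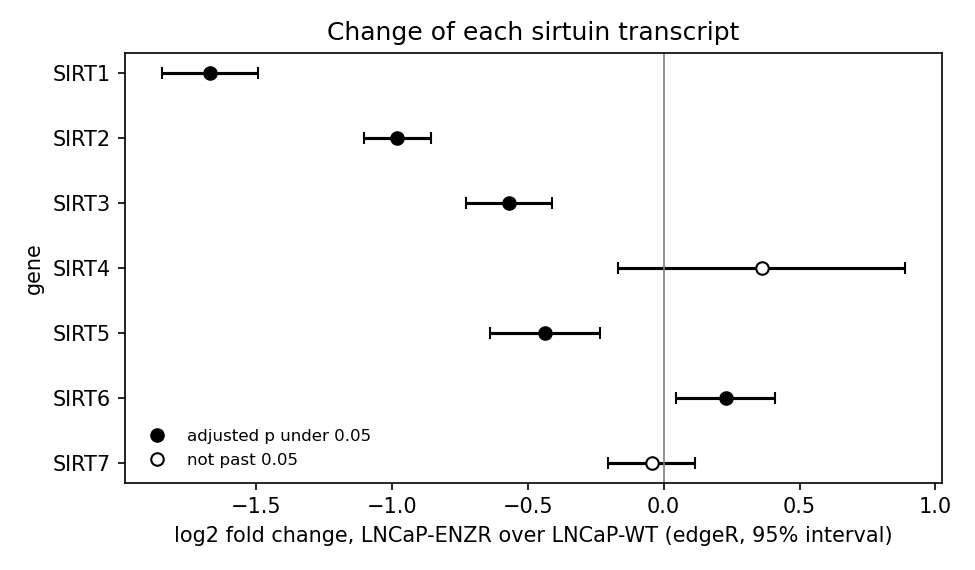
Log2 fold change of each sirtuin transcript, LNCaP-ENZR over LNCaP-WT (x axis, edgeR), with 95% intervals as bars, for 3 libraries a group. Filled points passed an adjusted p of 0.05: SIRT1, SIRT2, SIRT3 and SIRT5 lie below 0, from -1.67 to -0.44, and SIRT6 above it at 0.23.

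Levels between genes were compared per kilobase of gene model, with the authors' FPKM values, which are scaled by library totals alone. The order and the shares below rest on a fixed length for each gene, from 1898 bp for SIRT6 to 8409 bp for SIRT5. Whether these lengths match the transcripts expressed was not tested. In CPM, which omit length, SIRT6 lay below SIRT3 and SIRT7 in LNCaP-ENZR, at 20.5 against 28.2 and 27.0. SIRT2 was the most abundant sirtuin in both groups, at 44.6 ± 1.62 FPKM in LNCaP-WT against 21.3 ± 0.3 in the resistant cells (SD, n = 3 each). Below it the order changed. In LNCaP-WT, SIRT1 came next at 14.8 ± 1.05 FPKM, then SIRT3 at 9.63 ± 0.336 and SIRT6 at 9.48 ± 0.335, which overlapped, then SIRT7 at 8.15 ± 0.177, SIRT5 at 2.29 ± 0.200 and SIRT4 at 0.681 ± 0.197. In LNCaP-ENZR, SIRT6 came next at 10.4 ± 0.653, then SIRT7 at 7.45 ± 0.336, SIRT3 at 6.12 ± 0.447, SIRT1 at 4.39 ± 0.481, SIRT5 at 1.60 ± 0.101 and SIRT4 at 0.824 ± 0.114. Apart from SIRT3 and SIRT6 in LNCaP-WT, neighbours in either order did not overlap between their 3 libraries. SIRT1 thus held the second place in the parental cells and the fifth in the resistant cells. SIRT7, whose CPM values overlapped, did not overlap between groups in FPKM, at 7.96 to 8.31 against 7.15 to 7.81, since FPKM omits the TMM scaling factors, which were 1.029 to 1.033 for LNCaP-WT and 0.966 to 0.976 for LNCaP-ENZR.

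**Figure D2:**
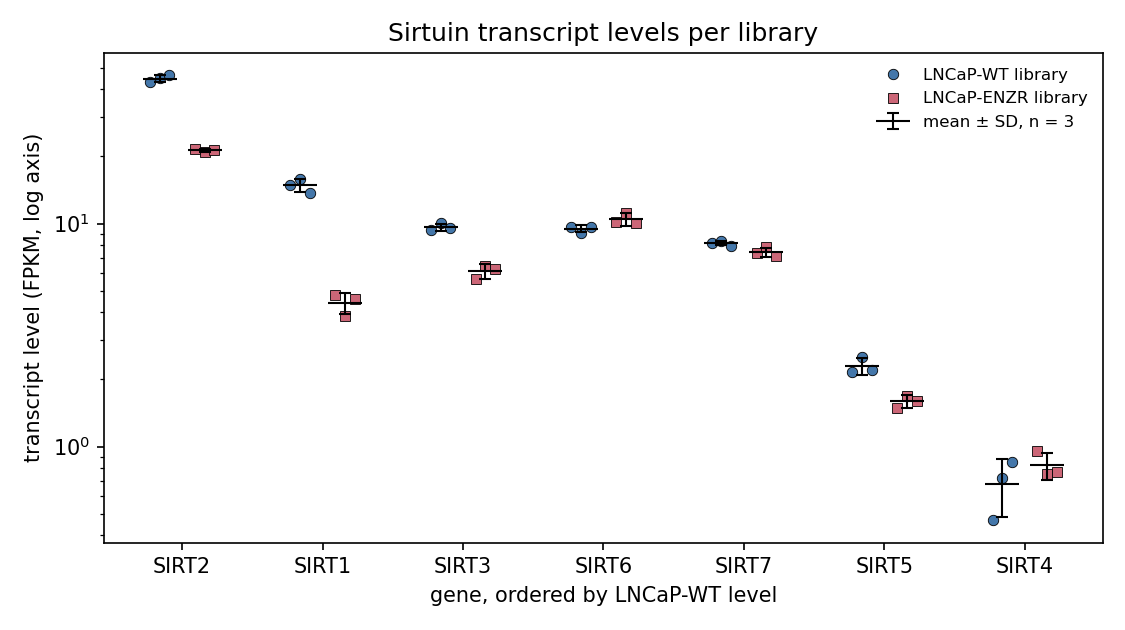
FPKM of each sirtuin gene (y axis, log scale) in the 3 LNCaP-WT libraries (circles) and the 3 LNCaP-ENZR libraries (squares), with mean ± SD as black bars. SIRT2 is highest in both groups, and SIRT1 drops from 14.8 to 4.39 FPKM, below SIRT6, SIRT7 and SIRT3.

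The summed sirtuin level was 89.7 ± 1.86 FPKM in the parental and 52.1 ± 0.577 in the resistant libraries (SD, n = 3 each). SIRT2 made up 49.8 ± 1.28% of that sum in the parental cells and 40.9 ± 0.953% in the resistant cells. The share of SIRT1 went from 16.5 ± 1.11% to 8.43 ± 1.0%, that of SIRT6 from 10.6 ± 0.558% to 20.1 ± 1.02% and that of SIRT7 from 9.09 ± 0.246% to 14.3 ± 0.487%. Among the mitochondrial members, SIRT3 held 10.7 ± 0.203% and 11.7 ± 0.803%, SIRT5 2.55 ± 0.181% and 3.06 ± 0.175%, and SIRT4 0.757 ± 0.21% and 1.58 ± 0.224%. A ratio of 2 genes within a library does not depend on the scaling. The ratio of SIRT1 to SIRT6 in FPKM ranged from 1.42 to 1.74 in the parental libraries and from 0.344 to 0.469 in the resistant ones. The ratio of SIRT1 to SIRT2 was 0.298 to 0.354 and 0.183 to 0.221, and that of SIRT3 to SIRT5 was 3.97 to 4.35 and 3.77 to 3.89. Of all 21 pairs of the 7 genes, 19 had ratios that did not overlap between groups, against 70.0% of all pairs of 15229 genes with a count in every library. Since each sirtuin enters 6 pairs, the pairs are not independent. The 2 that overlapped were SIRT4 with SIRT6 and SIRT4 with SIRT7. With 3 libraries against 3, a two-sided exact permutation test cannot go below p = 0.1, the value for each of the 19 (0.111 after Benjamini-Hochberg adjustment over the 21 pairs), so no pair could reach 0.05.

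The gene loci were taken from RefSeq on GRCh38, the build that the submitters' processing notes name. SIRT1 spans chr10:67884656-67918390 and is flanked by 2 genes that also fell. DNAJC12, a J-domain cochaperone gene which starts 46468 bp away on the opposite strand, went from 88.8 ± 6.24 to 9.11 ± 0.417 CPM (n = 3 each, log2 fold change -3.29 ± 0.080 SE, edgeR adjusted p = 4.54e-17). HERC4, a ubiquitin ligase gene 3515 bp beyond the end of SIRT1, fell from 55.8 ± 3.02 to 32.4 ± 2.79 CPM (log2 fold change -0.79 ± 0.075 SE, edgeR adjusted p = 2.05e-08).

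The wider neighbourhood of SIRT1 was examined after these values were seen. Within 1 Mb of the gene 14 other genes were tested, of which 9 fell, 4 rose and 1 did not pass, so 64.3% fell against 34.8% of all tested genes. CTNNA3, which encodes an alpha-catenin, had 4119 counts summed over the 3 parental libraries and 8 over the 3 resistant ones, 499.9-fold lower after library scaling, with a 95% counting interval of 253.5 to 1159. LRRTM3, a gene nested in CTNNA3, had 2598 and 2 counts, 1261-fold lower (counting interval 348.8 to 10420). Both counts lie in LNCaP-ENZR 2. Without that library the resistant cells had 0 counts and the fitted log2 fold change was -12.74, which is no bound, against -10.1 to -9.53 without each of the other 5 libraries. For CTNNA3 the fitted value ranged from -9.28 to -8.51 without single libraries. Both lie on the DNAJC12 side of SIRT1. On the HERC4 side, PBLD fell 2.20-fold, RUFY2 1.97-fold, SLC25A16 1.504-fold, HNRNPH3 1.42-fold and STOX1 1.28-fold. The STOX1 call (edgeR adjusted p = 0.0318) ended when LNCaP-WT 1 (0.129), LNCaP-WT 3 (0.103) or LNCaP-ENZR 1 (0.139) was left out, and with offsets for gene length (0.103). On the same side the helicase genes DNA2 and DDX50 rose 1.64-fold and 1.39-fold, CCAR1 rose 1.42-fold and TET1 rose 3.56-fold from a low 0.361 ± 0.128 CPM, while the log2 fold change of ATOH7 was 0.28 (edgeR adjusted p = 0.525). Whether the position of SIRT1 beside these genes bears on its fall was not tested.

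**Figure D3:**
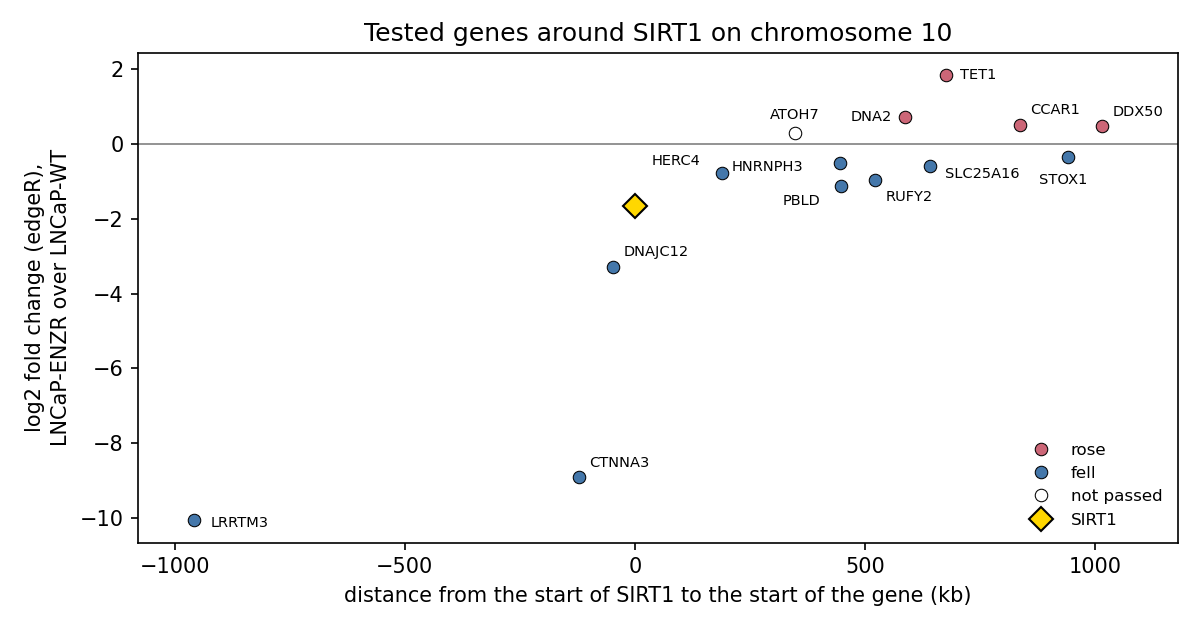
Log2 fold change, LNCaP-ENZR over LNCaP-WT (y axis, edgeR), of the 14 other tested genes within 1 Mb of SIRT1, by the distance of their starts from that of SIRT1 (x axis, kb). CTNNA3 and LRRTM3, whose fitted values rest on 8 and 2 counts in LNCaP-ENZR, and DNAJC12 lie left of SIRT1 (diamond, -1.67), and the genes that rose lie right of it.

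The same count varied among the other sirtuin loci. Within 1 Mb, 13 of 39 tested genes fell around SIRT2, 21 of 41 around SIRT3, 7 of 30 around SIRT4, 3 of 9 around SIRT5, 10 of 42 around SIRT6 and 27 of 63 around SIRT7. For SIRT3 that is 51.2% and for SIRT7 42.9%, and for the other 4 loci it ranged from 23.3% to 33.3%, beside 34.8% of all tested genes.

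The starts of 4 sirtuin genes, SIRT2, SIRT3, SIRT5 and SIRT6, lie within 500 bases of the start of a gene on the opposite strand. Of these 4 partners 2 rose and 2 fell, beside 34.4% of all tested genes that rose and 34.8% that fell. SIRT3 (chr11:215030-236931) starts 45 bp from PSMD13, a proteasome subunit gene, so the window reaches into that gene. PSMD13 rose from 114.9 ± 6.49 to 136.5 ± 2.79 CPM (n = 3 each, log2 fold change 0.25 ± 0.057 SE, edgeR adjusted p = 0.00073), while SIRT3 fell. SIRT6 (chr19:4174109-4182563) starts 126 bp from ANKRD24, an ankyrin repeat gene, which fell from 17.1 ± 1.03 to 4.03 ± 1.14 CPM (log2 fold change -2.09 ± 0.15 SE, edgeR adjusted p = 1.05e-09), against 0.23 for SIRT6. SIRT2 (chr19:38878555-38899618) starts 48 bp from NFKBIB, an inhibitor of NF-kappaB. NFKBIB fell too, from 20.8 ± 0.449 to 16.9 ± 0.895 CPM (log2 fold change -0.30 ± 0.085 SE, edgeR adjusted p = 0.00472), against -0.98 for SIRT2. The difference between partners was not tested.

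Other neighbours went in several directions. RINL, a guanine nucleotide exchange factor gene 280 bp past the end of SIRT2, fell 1.75-fold. BET1L, a vesicle fusion gene beside SIRT3, fell 1.26-fold, and RIC8A, which overlaps the end of SIRT3 by 84 bp, had a log2 fold change of -0.03 (edgeR adjusted p = 0.696). Beside SIRT5 (chr6:13574274-13615158), GFOD1 fell 1.63-fold and NOL7, a nucleolar protein gene, was at -0.08 (edgeR adjusted p = 0.415), passing only with offsets for gene length (-0.18, adjusted p = 0.0485). The fourth partner, the long noncoding RNA gene LOC105374937, overlaps the start of SIRT5 by 161 bp and rose from 1.12 ± 0.118 to 1.95 ± 0.404 CPM, a call (edgeR adjusted p = 0.0133) that was lost without LNCaP-ENZR 2 (0.0715). Beside SIRT7 (chr17:81911939-81918176), PCYT2 of phosphatidylethanolamine synthesis rose 1.403-fold and the transcription factor gene MAFG fell 1.249-fold. Beside SIRT4 (chr12:120291780-120313249), the focal adhesion gene PXN had a log2 fold change of -0.05 (edgeR adjusted p = 0.369), which passed as lower with library totals alone (-0.14, adjusted p = 0.0195) and in the 3 limma fits of FPKM (0.0213 to 0.0287), and MSI1, an RNA-binding protein gene, rose 1.89-fold. MAP2K2, a MAP kinase kinase gene beside SIRT6, rose 1.59-fold. The strand setting of the counting is not given in the sources used here, so reads in the overlaps at SIRT3 and SIRT5 cannot be assigned with certainty. In GENCODE the SIRT7 gene reaches to chr17:81921323, past the near end of MAFG, which in RefSeq lies 94 bp from SIRT7 on the same strand. The annotation used for counting is not given either, so the same limit holds for SIRT7 with MAFG and for SIRT2 with NFKBIB.

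NAD metabolism was described with a list of 23 genes around NAD synthesis, salvage and transport. Not every one of them, ACMSD among these, adds to the supply of NAD, which was not measured. Of the 23 genes, 21 were in the table and 16 were tested. Of the 16 tested genes, 4 rose and 6 fell, while 6 did not pass. Over all tested genes 34.4% rose and 34.8% fell. The median log2 fold change of the list was -0.09, and that of all tested genes was -0.01. PNP, a nucleoside phosphorylase that can cleave nicotinamide riboside, rose 3.28-fold (log2 fold change 1.71 ± 0.064 SE, edgeR adjusted p = 2.25e-14). The genes that fell include NMRK1, the nicotinamide riboside kinase (1.86-fold), NMNAT2, a cytosolic enzyme of the last step of NAD synthesis (1.77-fold), and NNT, the mitochondrial transhydrogenase (1.63-fold). NAMPT makes nicotinamide mononucleotide from the nicotinamide that sirtuins release. Its values were 67.2, 75.3 and 66.5 CPM in LNCaP-WT and 104.4, 74.5 and 83.4 in LNCaP-ENZR, and the groups overlapped. It passed in the edgeR test (1.26-fold higher, adjusted p = 0.019). That call was lost without LNCaP-WT 3 (0.0534), with library totals as the only scaling (0.07), or in the limma fits of FPKM (0.0971 to 0.174). The other 2 that rose, named after their values were seen, were the kynurenine pathway genes KYNU, with 8 and 79 counts over 3 libraries, and ACMSD, with 3 and 87 counts. With the stricter filter, which removes both, 2 genes of the list rose.

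Of 15 tested genes for other enzymes that consume NAD, 11 fell, 3 rose and 1 did not pass (median log2 fold change -0.31). Over all tested genes 34.8% fell and 34.4% rose, with a median of -0.01. The 3 genes of the list that rose were PARP1, PARP2 and PARP8. PARP1, a main sensor of DNA damage, went from 219.4 ± 4.45 to 487.3 ± 5.12 CPM (n = 3 each, log2 fold change 1.15 ± 0.049 SE, edgeR adjusted p = 1.56e-13). The related PARP2 rose 2.48-fold and PARP8 1.93-fold. PARP10, a mono-ADP-ribosyltransferase, fell most among members with at least 100 counts on average, by 6.62-fold.

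The zinc-dependent deacetylases share the sirtuins' reaction but not their cofactor. Of their 10 tested genes 7 fell, 2 rose and 1 did not pass (median log2 fold change -0.51). Over all tested genes 34.8% fell and 34.4% rose, with a median of -0.01. HDAC11 fell 1.86-fold, the tubulin deacetylase HDAC6 fell 1.61-fold and HDAC10, a polyamine deacetylase, 1.59-fold. HDAC2, a nuclear corepressor subunit, rose 1.85-fold and HDAC3 1.27-fold. Among 10 acetyltransferases 3 rose, 1 fell and 6 were not called (median log2 fold change 0.07), beside the same shares of all tested genes. KAT2B, also called PCAF, fell 2.19-fold. KAT2A rose 1.19-fold and KAT7 1.18-fold, the latter not passing in the unfiltered limma fit of FPKM (adjusted p = 0.0504). EP300, which encodes p300, rose 1.21-fold (edgeR adjusted p = 0.0318). That call was lost without LNCaP-ENZR 2 (0.0666), with library totals as the only scaling (0.137), or in the limma fits of FPKM (0.148 to 0.241).

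Of 3 genes known to regulate SIRT1, HIC1 was too scarce to test, with 14 and 7 counts over 3 libraries. CCAR2, which encodes an inhibitor of SIRT1, was at 95.1 ± 3.71 and 95.2 ± 2.37 CPM (n = 3 each), and the 95% interval of its log2 fold change was -0.12 to 0.12 (edgeR adjusted p = 0.977), with a sign that changed among the alternatives. RPS19BP1, which encodes an activator of SIRT1, rose 1.15-fold (edgeR adjusted p = 0.0105), a call lost without LNCaP-WT 1 (0.07), with library totals alone (0.129), in the limma fits of FPKM (0.0922 to 0.139) and with offsets for gene length (0.953).

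Genes for known sirtuin substrates were listed by compartment. Of 18 nuclear and cytosolic ones, 9 rose and 4 fell, while 5 did not pass, and the median log2 fold change was 0.17. Over all tested genes 34.4% rose and 34.8% fell, with a median of -0.01. FOXO3, a stress-response transcription factor gene, fell 1.90-fold, NR1H2, which encodes the liver X receptor beta, 2.06-fold and RELA of NF-kappaB 1.38-fold. PPARGC1A, which encodes PGC-1alpha, rose 4.99-fold.

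Of 19 tested genes for mitochondrial substrates, 12 rose and 4 fell, and 3 did not pass (median log2 fold change 0.57). Over all tested genes 34.4% rose and 34.8% fell, with a median of -0.01. Whether this list is tied to SIRT3 and SIRT5, which both fell, was not tested. The aldehyde dehydrogenase gene ALDH2 rose 7.68-fold, PPIF, which encodes cyclophilin D of the permeability transition pore, rose 2.24-fold and the ADP/ATP carrier SLC25A5 2.07-fold. The fatty acid oxidation enzyme ACADVL fell 1.84-fold and the isocitrate dehydrogenase IDH2 1.28-fold. CPS1, which makes carbamoyl phosphate and is a SIRT5 substrate, fell 1.19-fold (edgeR adjusted p = 0.0189). Its groups overlapped and the call was lost without LNCaP-WT 1 (0.063), LNCaP-WT 3 (0.0613), LNCaP-ENZR 1 (0.0664) or LNCaP-ENZR 2 (0.0858), and with offsets for gene length (0.0832). These lists describe transcripts, and the acylation of the proteins was not measured in these libraries.

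**Figure D4:**
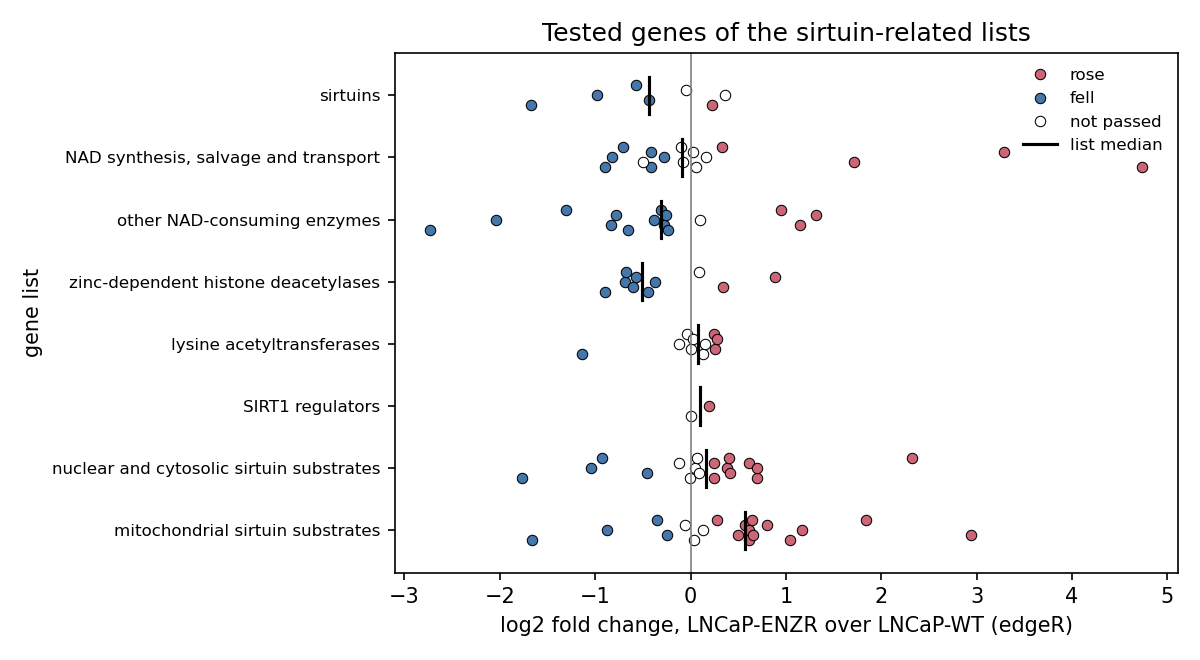
Log2 fold change, LNCaP-ENZR over LNCaP-WT (x axis, edgeR), of every tested gene in 8 groups (rows), with the group's median as a black bar. The medians of the sirtuins (-0.44) and the zinc-dependent histone deacetylases (-0.51) lie left of 0, and that of the mitochondrial sirtuin substrates (0.57) lies right of it.

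The genes most like SIRT1 and SIRT6 over the 6 libraries were found by the root mean square distance between log2 CPM values, each centred on the gene's own mean, among 10366 genes with at least 100 counts on average. For SIRT1, the largest faller, these were TMEM144 (distance 0.0479), MACIR (0.0528) and ZMAT3 (0.0529), with log2 fold changes of -1.59, -1.67 and -1.58. For SIRT6, the only member called higher, they were LANCL2 (0.0158), RITA1 (0.0258) and EIF6 (0.0261), with log2 fold changes of 0.24, 0.26 and 0.23. Since all 6 libraries fall into 2 groups, the distance mostly ranks genes by how closely their fold changes match.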

How the data were processed

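Per the labels, RNA-seq libraries were made from 3 LNCaP-WT and 3 LNCaP-ENZR samples. The tools fastp, HISAT2 and HTSeq and the build GRCh38 are listed, without versions, per the submitters' processing notes. Annotation, strand setting and handling of multimapping reads: not given in the sources used here. The deposited tables hold raw read counts and FPKM values made by the authors for 23998 genes. The deposited FPKM equal counts divided by the library total and by a fixed length for each gene.

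Counts were tested with edgeR 4.0.16 (quasi-likelihood, robust, TMM factors, filterByExpr) in R 4.3.3, two-sided, with Benjamini-Hochberg adjustment over 15422 genes. The biological coefficient of variation was 7.41%. CPM use TMM-scaled library sizes. The test was checked on simulated counts of 15422 genes, with 50 genes changed at each of 4 sizes. It recovered 44% of 1.25-fold, 72% of 1.5-fold, 84% of 2-fold and 98% of 4-fold changes. There were 17 false calls. Far fewer genes changed in that simulation than were called in the data (69.2%), so these shares may not carry over. Alternatives used DESeq2 1.42.0, limma 3.58.1, other scalings and filters, FPKM on a log2 scale with pseudocounts of 0.1 or 1, gene length offsets, and leaving out each library.

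The sirtuins and all gene lists were chosen with earlier results of these data known. Named genes were the sirtuins, up to 4 called genes per list with at least 100 counts on average and the largest change, every such gene called against its list's majority, the 3 genes closest in pattern to the largest faller and riser, and the nearest tested genes on each side. Genes near SIRT1, KYNU and ACMSD were added after their values were seen. CCAR2 and HIC1, which were not called, were also named outside that rule. Coordinates and upstream sequences come from RefSeq (GRCh38.p14), with strands from GENCODE. Upstream windows matched 6 of 7 sirtuins, and 15084 tested genes (97.8%) were placed. Counting intervals cover counting error only. Some genes of the lists are counted but not reported by name here.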

Additional observations from a re-analysis of the deposited data

How the results depend on the processing

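SIRT1, SIRT2, SIRT3 and SIRT5 passed as lower under all 18 alternatives, at log2 fold changes of -1.76 to -1.56, -1.07 to -0.95, -0.66 to -0.50 and -0.52 to -0.32, and SIRT4 (0.12 to 0.55) passed under none. SIRT6 passed under 10. It did not pass, and 0 sirtuins rose, with library totals alone (log2 fold change 0.14), limma on log2(FPKM + 0.1) with or without a filter (0.14 both) or on log2(FPKM + 1) (0.13), and gene length offsets (0.14). Leaving out single libraries gave 0.18 to 0.28 for SIRT6, -0.0734 to 0.0115 for SIRT7, and 0 to 1 sirtuins that rose. In the NAD synthesis list 2 genes rose with the stricter filter and in both filtered FPKM fits. Among acetyltransferases 1 rose in the unfiltered FPKM fit, and 2 fell with library totals alone (1 to 2 without single libraries). Of the SIRT1 regulators 0 rose with library totals alone, in the 3 FPKM fits and with length offsets, and 0 to 1 without single libraries. The cause of these shifts was not tested. Signs that turned were those of RIC8A (0.017 without LNCaP-ENZR 3, with a range of -0.051 to 0.017 over single libraries left out), PXN (0.0499 with length offsets), ATOH7 (-0.068 without LNCaP-ENZR 2, range -0.068 to 0.63) and CCAR2 (-0.084 with library totals alone, -0.083, -0.080 and -0.083 in the 3 FPKM fits, -0.00049 with upper-quartile factors, -0.0064 with the stricter filter, -0.0086 without LNCaP-ENZR 2, and -0.028, without LNCaP-WT 2, to 0.029 over single libraries left out). Of 68 named genes, 53 kept direction and call under every alternative that tested them. Replicate numbers did not pair the libraries (correlations of deviations 0.013, 0.027 and 0.065; 3 of 6 libraries correlated best with their own number). With a replicate block the log2 fold changes were -1.67 for SIRT1 and 0.23 for SIRT6, and 5316 genes rose and 5398 fell, against 5308 and 5366 without it.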
